A study of Rattus norvegicus with 16 samples.

Results

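The livers compared here came from control rats that were kept under general anesthesia for 8 h after a celiotomy without sepsis, maintained either with isoflurane or with propofol. They make up 8 of the 16 libraries of the series, 4 isoflurane libraries (numbered 5 to 8 by the submitters) and 4 propofol libraries (13 to 16), and were chosen by these labels and not by any measured value. The other 8 libraries, 1 to 4 and 9 to 12, come from rats made septic by cecal ligation and puncture under the same anesthetics, and are used only where the same contrast is set beside the control values. All rats were male Sprague-Dawley rats, aged 10 weeks, and each library pooled liver of 3 rats, so that 12 rats stand behind each group and the spread between libraries is a spread between pools. In both control groups the abdomen was opened, the cecum was lifted out and put back, and the abdomen was closed. The rats were intubated and ventilated with oxygen throughout. Rats of the isoflurane group were induced with isoflurane and kept on it, starting at 1.5% inspired. Rats of the propofol group were induced with an intraperitoneal injection of ketamine and xylazine and then kept on a propofol infusion. The deposited files of the isoflurane and the propofol libraries also carry different run codes. The maintenance anesthetic, ketamine-xylazine induction and run code therefore cannot be told apart, and with no liver of an unanesthetized rat in the comparison a difference cannot be assigned to a rise under the one regimen or a fall under the other.

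Isoflurane is an inhaled ether that leaves the body mostly unchanged through the lungs. Propofol is an intravenous phenol, given as a lipid emulsion, that the liver clears by glucuronidation and oxidation. Ketamine blocks NMDA receptors and xylazine is an alpha-2 adrenergic agonist, and alpha-2 agonists are known to lower insulin release. The liver supplies glucose and ketone bodies to the body, turns the nitrogen of amino acids into urea, makes cholesterol, bile acids and plasma proteins, and clears drugs with cytochrome P450 and conjugating enzymes. Much of this is set at the mRNA level by glucagon, insulin, glucocorticoids, the nuclear receptor PPARα, the sterol-sensing SREBP2, the redox-sensing NRF2 and the circadian clock.

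The number of reads on genes was 20647030 to 49937173 per isoflurane library and 14199422 to 19621491 per propofol library. Library 8 was the deepest, and groups did not overlap in depth (p = 0.0286 in a two-sided exact permutation test, below which 8 libraries cannot go). Reads outside genes were 22.4% to 22.95% under isoflurane and 21.6% to 22.1% under propofol, and the 10 most abundant genes took 31.1% to 31.7% and 29.5% to 30.9%. The TMM factors, which correct for such a difference in composition and were set over all 16 libraries, were 0.954 to 0.984 and 1.06 to 1.09. Counts of the libraries within a group differed by more than sampling noise, with a chi-square per degree of freedom of 3.469 to 28.32 (the value expected from sampling alone is close to 1), and each library was counted as a sample of its own. Every hepatocyte marker was detected, as the tissue label requires, and 12 markers of pancreas and intestine summed to 7.43 to 10.7 CPM (the reads of a gene relative to all reads on genes of its library, after TMM scaling), with 3 of them at 0 in the 8 libraries. Among the septic libraries, isoflurane libraries 1 and 2 stood apart from 3 and 4 in several genes that separate the anesthetics, so that results from septic liver are given with and without this pair. The first principal component of the 8 libraries held 64.2% of the variance and separated the anesthetics, with isoflurane libraries at -22.1 to -16.8 and propofol libraries at 16.8 to 24.1. The propofol libraries were the more dispersed, with a median SD of 0.135 per gene (log2 scale) against 0.0922 under isoflurane, and a larger SD for 70.6% of genes.

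With edgeR's quasi-likelihood test and Benjamini-Hochberg adjustment, 4468 of 10314 genes tested (43.3%) differed between isoflurane and propofol control liver at an adjusted p below 0.05, and these are called below. Of the genes tested, 2225 (21.6%) were called higher under isoflurane and 2243 (21.7%) lower. Every isoflurane library lay on the same side of every propofol library for 3872 of the called genes (86.7%), against 40.8% of all genes tested. The size of a called difference had a median of 0.403 on the log2 scale, and 240 genes were called higher and 209 lower by more than 1. The count of higher and lower genes depends on the scaling. Scaling to library totals without TMM moved the median log2 fold change of all genes from -0.0005 to -0.15, with 1139 genes called higher and 3824 lower. The counts of several groups are therefore given under that scaling too, and medians of gene groups are to be read against this shift. Group counts with library totals are to be read against these 1139 and 3824 of 10314 genes, and not against 21.6% and 21.7%. A fit over all 16 libraries, which shares 1 estimate of the spread, called 2793 genes, and its adjusted p is given for the named genes that lost their call in it. Since no sample is of a purified cell type, fewer cells of a type and less RNA per cell cannot be told apart.

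The genes with the largest differences, 12 in each direction, were taken from called genes whose groups did not overlap. They included enzymes of drug, aldehyde and amino acid metabolism. Adh6, an alcohol dehydrogenase, had 20.9, 15.2, 13.5 and 25.01 CPM in the isoflurane libraries 5 to 8 and had 1 read over the 4 propofol libraries. The ratio of its reads, 2185 against 1 and relative to depth, was 1480, with a 95% counting interval of 265 to 58400. Ugt1a2, a glucuronosyltransferase, had 9.03, 8.34, 6.84 and 8.97 CPM in isoflurane libraries 5 to 8 and 0.591, 0.355, 0.826 and 0.245 CPM in propofol libraries 13 to 16 (log2 fold change 4.02, SE 0.23, adjusted p = 2.44e-06). The difference in Ugt1a2 is 16.2-fold. Aldh1a7, an aldehyde dehydrogenase, had 64.3, 49.97, 46.99 and 73.04 CPM in isoflurane libraries 5 to 8 and 7.62, 11.1, 6.27 and 2.55 CPM in propofol libraries 13 to 16 and was 8.67-fold higher (log2 fold change 3.12, SE 0.30, adjusted p = 2.97e-05). Akr1b7, an aldo-keto reductase, was 12.5-fold higher at a low level (3.94 ± 0.701 CPM under isoflurane and 0.312 ± 0.0638 CPM under propofol, SD, n = 4 libraries each; log2 fold change 3.64, SE 0.22, adjusted p = 3.21e-06). In isoflurane septic libraries 1 and 2, Adh6, Aldh1a7, Akr1b7 and also Evc were no higher than in the highest propofol library. Other genes of the set were Dio3, the deiodinase that inactivates thyroid hormone (11.8-fold, log2 fold change 3.56, SE 0.34, adjusted p = 3.17e-05), the ciliary gene Evc (7.45-fold, log2 fold change 2.897, SE 0.18, adjusted p = 3.04e-06), the extracellular matrix gene Sned1 (2.75) and the epoxide hydrolase Ephx2 (2.35).
In the opposite direction, Akr7a3, an aldehyde reductase under NRF2 control, had 16.8, 18.4, 14.9 and 13.6 CPM in isoflurane libraries 5 to 8 and 225, 107, 242 and 109.7 CPM in propofol libraries 13 to 16. It was 10.9-fold lower under isoflurane (log2 fold change -3.44, SE 0.28, adjusted p = 1.42e-05), and propofol libraries 13 and 15 held about the same level, above 14 and 16. Tsku, a secreted leucine-rich repeat protein, had 35.4, 33.3, 44.7 and 41.7 CPM in isoflurane libraries 5 to 8 and 259, 242, 445 and 235 CPM in propofol libraries 13 to 16 and was 7.64-fold lower (log2 fold change -2.93, SE 0.20, adjusted p = 5.62e-06). Aox3, an aldehyde oxidase, was 8.21-fold lower (15.7 ± 3.85 CPM under isoflurane and 126 ± 33.2 CPM under propofol; log2 fold change -3.04, SE 0.22, adjusted p = 7.69e-06), and Hsd17b2, which oxidizes estradiol and testosterone, was 6.02-fold lower (26.3 ± 5.64 CPM under isoflurane and 158 ± 49.4 CPM under propofol; log2 fold change -2.59, SE 0.23, adjusted p = 2.01e-05). The remaining genes of this set were Cryl1 (-3.01), Akr1b8 (-2.98), Csmd1 (-2.67), Snx10 (-2.46) and, at a low level, Tex36 (-3.37) and Colq (-2.65), together with Nr0b2 and Angptl4, which are described with their groups. All of these were called, with adjusted p between 5.62e-06 for Tsku and 0.00761 for Colq.

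Urea cycle and amino acid breakdown genes were higher under isoflurane. Of 33 tested, 22 were called higher and 4 lower, with a median log2 fold change of 0.46, where 21.6% of all genes were called higher and the median of all genes was -0.0005. Got1, the cytosolic aspartate aminotransferase, had 985, 1262, 999 and 1362 CPM in isoflurane libraries 5 to 8 and 193, 97.9, 152 and 202 CPM in propofol libraries 13 to 16. This was 7.11-fold higher (log2 fold change 2.83, SE 0.21, adjusted p = 8.07e-06), and the lowest isoflurane library held several times the level of the highest propofol library. Sds, serine dehydratase, which feeds serine into gluconeogenesis, had 169.7, 222, 132 and 216 CPM in isoflurane libraries 5 to 8 and 40.8, 5.56, 18.2 and 48.4 CPM in propofol libraries 13 to 16 (log2 fold change 2.703, SE 0.47, adjusted p = 0.00105). The groups were separate for Sds as well, although propofol library 14 was far below 13 and 16. Within the urea cycle, Cps1, its entry enzyme, had 5262, 6133, 6094 and 6130 CPM in isoflurane libraries 5 to 8 and 2314, 2070, 2329 and 2423 CPM in propofol libraries 13 to 16 and was 2.57-fold higher (log2 fold change 1.36, SE 0.065, adjusted p = 1.36e-06). The 2 enzymes that make and split argininosuccinate were also higher, Asl by 1.497 (adjusted p = 4.05e-06) and Ass1 by 1.04 (adjusted p = 6.05e-06) on the log2 scale. Tat, tyrosine aminotransferase, a glucocorticoid and glucagon target, had 2427, 2567, 2389 and 2539 CPM in isoflurane libraries 5 to 8 and 1301, 359, 1112 and 1233 CPM in propofol libraries 13 to 16 (log2 fold change 1.301, SE 0.30, adjusted p = 0.00557). Propofol library 14 again was the lowest.
The 4 members that were lower include Glul, glutamine synthetase, an enzyme of the hepatocytes next to the central vein, with 88.8, 107, 129 and 123 CPM in isoflurane libraries 5 to 8 and 269.8, 427, 404 and 334 CPM in propofol libraries 13 to 16 (log2 fold change -1.69, SE 0.15, adjusted p = 2.14e-05). Glul was 3.22-fold lower with no overlap. The other members called lower were Hal (-0.79), Cth (-0.34, and adjusted p = 0.329 in the fit over 16 libraries) and Gpt2 (-0.31, adjusted p = 0.0176). The call of Gpt2 was lost without isoflurane library 5 (adjusted p = 0.0517) and in the fit over 16 libraries (0.279). With scaling by library totals 19 members were called higher and 4 lower. The hepatocyte marker list, which shares Cps1 and Tat with this group, summed to 185200 to 197300 CPM under isoflurane and 145000 to 156500 CPM under propofol, and its part in the result was not tested. Of its 12 members, 8 were called higher and 1, the transcription factor Hnf4a, lower, and with library totals 5 and 2.

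**Figure D1:**
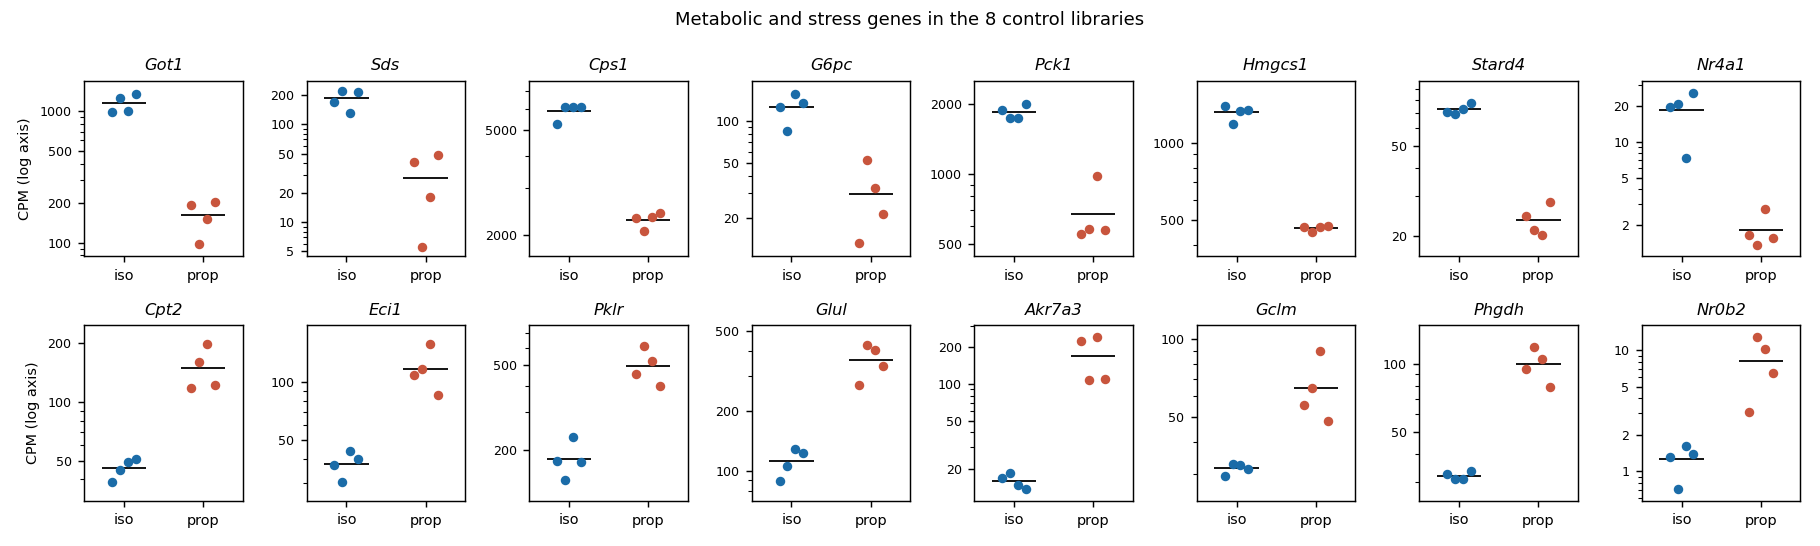
Normalized expression (CPM, log axis) of 16 metabolic and stress genes in the 4 isoflurane (blue, iso) and 4 propofol (red, prop) control libraries. Each point is a library, a pool of 3 rats, and the black line is the mean of the group. In each of the 16 panels the groups do not overlap, and the upper row holds genes higher and the lower row genes lower under isoflurane.

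G6pc and Pck1, which carry hepatic glucose output, were higher under isoflurane, and the glycolytic Pklr and the glycogen genes Pygl and Ppp1r3b were lower. G6pc, glucose-6-phosphatase, the last step of glucose release, had 126, 85.1, 155 and 134 CPM in isoflurane libraries 5 to 8 and 13.1, 52.3, 32.8 and 21.2 CPM in propofol libraries 13 to 16. It was 4.16-fold higher (log2 fold change 2.06, SE 0.34, adjusted p = 7.43e-04). Pck1, the cytosolic phosphoenolpyruvate carboxykinase of gluconeogenesis, had 1872, 1740, 1742 and 1997 CPM in isoflurane libraries 5 to 8 and 554, 583, 982 and 572 CPM in propofol libraries 13 to 16 (log2 fold change 1.44, SE 0.16, adjusted p = 7.89e-05). Propofol library 15 was above the other propofol libraries for Pck1 and still below every isoflurane library. Pklr, the liver pyruvate kinase of glycolysis, had 179, 145, 232 and 176 CPM in isoflurane libraries 5 to 8 and 453, 610.0, 518 and 399 CPM in propofol libraries 13 to 16 and was 2.72-fold lower (log2 fold change -1.44, SE 0.15, adjusted p = 5.04e-05). Also lower were the liver glycogen phosphorylase Pygl (-0.87, adjusted p = 4.04e-05) and the glycogen-targeting subunit Ppp1r3b (-1.07, adjusted p = 7.84e-05). Over the whole list of gluconeogenesis, glycolysis and glycogen, 8 of 36 genes (22.2%) were called higher and 11 (30.6%) lower, against 21.6% and 21.7% of all genes, and the 8 became 5 without isoflurane library 5, 6 or 8 or propofol library 16, and 3 with scaling by library totals.
In the list of insulin signalling and feedback, 9 of 20 genes (45%, against 21.6% of all genes) were called higher and 3 (15%, against 21.7%) lower. The 3 were Akt1 (-0.30), Trib3 and Pik3r1, and with library totals the counts were 8 and 4. Pik3r1, the regulatory subunit of PI3-kinase, differed by -0.80 (adjusted p = 0.0180) with overlap and lost its call without library 5, 6, 8 or 14 (adjusted p = 0.0506 to 0.0543). Ppargc1a, a coactivator induced by glucagon through cAMP, had 3.07, 4.598, 4.02 and 4.65 CPM in isoflurane libraries 5 to 8 and 1.77, 1.24, 0.826 and 0.980 CPM in propofol libraries 13 to 16 (log2 fold change 1.802, SE 0.22, adjusted p = 1.33e-04). Irs2, the insulin receptor substrate that is raised in fasting, was 3.02-fold higher (80.2 ± 10.8 CPM under isoflurane and 26.3 ± 10.7 CPM under propofol; log2 fold change 1.596, SE 0.22, adjusted p = 2.67e-04). Irs1 (0.90, adjusted p = 4.95e-04) and the leptin receptor Lepr (0.57, adjusted p = 4.35e-04) differed less. Igfbp1, which insulin represses, had 1181, 1119, 718 and 1289 CPM in isoflurane libraries 5 to 8 and 250.5, 208, 574 and 101 CPM in propofol libraries 13 to 16 and was 3.78-fold higher (log2 fold change 1.92, SE 0.42, adjusted p = 0.00406). The spread of Igfbp1 between propofol libraries was wide, yet the groups did not overlap.

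Fatty acid oxidation and ketogenesis genes were lower under isoflurane. Of 33 tested, 19 were called lower and 2 higher, with a median log2 fold change of -0.43, where 21.7% of all genes were called lower. Cpt2, which releases acyl groups from carnitine inside the mitochondrion, had 38.9, 44.6, 49.2 and 50.6 CPM in isoflurane libraries 5 to 8 and 118, 160.2, 196 and 122 CPM in propofol libraries 13 to 16. It was 3.27-fold lower (log2 fold change -1.71, SE 0.15, adjusted p = 2.18e-05), and the lowest propofol library was above the highest isoflurane library by more than the range of the latter group. Eci1, an enoyl-CoA isomerase, was 3.11-fold lower (37.9 ± 5.74 CPM under isoflurane and 117 ± 30.2 CPM under propofol; log2 fold change -1.64, SE 0.17, adjusted p = 4.53e-05), and Acaa2, the mitochondrial thiolase, 2.34-fold lower (247 ± 19.8 CPM under isoflurane and 576 ± 138 CPM under propofol; log2 fold change -1.23, SE 0.14, adjusted p = 7.24e-05). For ketone body synthesis, Bdh1, which makes 3-hydroxybutyrate, had 68.4, 67.2, 73.1 and 78.8 CPM in isoflurane libraries 5 to 8 and 104, 125, 99.2 and 111 CPM in propofol libraries 13 to 16 (log2 fold change -0.62, SE 0.079, adjusted p = 1.69e-04). The groups were separate for Bdh1. The 2 members called higher were the fatty acid transporter Slc27a2 (0.43) and the acyl-CoA synthetase Acsl5 (0.30, and adjusted p = 0.165 in the fit over 16 libraries). Of the 19 lower genes 13 had a promoter window in RefSeq, and none of these held the PPAR half-site AGGNCA repeated after 1 base, on either strand, which is in 0.322% of the windows of all genes tested; this says only that these letters are not in these windows.
Cpt1a, the rate-limiting carnitine palmitoyltransferase of the outer membrane, did not follow this pattern, with 418, 395, 473 and 392 CPM in isoflurane libraries 5 to 8 and 284, 546, 609 and 305 CPM in propofol libraries 13 to 16 (log2 fold change -0.064, SE 0.22, adjusted p = 0.834). Propofol libraries 14 and 15 lay above, and 13 and 16 below, the isoflurane libraries. Pdk4, the kinase that shuts pyruvate dehydrogenase in fasting, had 16.5, 11.7, 17.2 and 16.8 CPM in isoflurane libraries 5 to 8 and 22.1, 75.1, 275 and 14.99 CPM in propofol libraries 13 to 16 (log2 fold change -2.65, SE 0.76, adjusted p = 0.0164). Here propofol library 15 stood far above the rest and library 16 was within the isoflurane range, and without library 15 the log2 fold change was -1.27. The call was not made by limma-voom (adjusted p = 0.105) or in the fit over 16 libraries (0.0769). Angptl4, an inhibitor of lipoprotein lipase and a PPARα target, had 30.4, 19.2, 36.7 and 31.7 CPM in isoflurane libraries 5 to 8 and 83.1, 164, 233 and 68.8 CPM in propofol libraries 13 to 16 and was 4.68-fold lower (log2 fold change -2.23, SE 0.36, adjusted p = 6.58e-04). The microsomal fatty acid hydroxylases Cyp4a1 (-1.39, adjusted p = 2.88e-05) and Cyp4a2 (-0.86, adjusted p = 4.29e-04), both classical PPARα targets, were lower too. Averaged over the list, propofol libraries 13 to 16 deviated from the mean of the 8 libraries by 0.0856, 0.337, 0.553 and 0.0182 on the log2 scale, and isoflurane libraries 5 to 8 by -0.265, -0.360, -0.199 and -0.170. Libraries 14 and 15 thus carried most of the height of the propofol group, while 13 and 16 were closer to isoflurane without reaching it.

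Cholesterol synthesis genes were almost uniformly higher under isoflurane. Of the 24 tested genes of the pathway and its SREBP2 regulators, 22 (91.7%, against 21.6% of all genes) were called higher and none lower. The median log2 fold change was 0.51. Scaling by library totals gave 19 higher and none lower with a median of 0.37. Hmgcs1, the cytosolic HMG-CoA synthase, had 1393, 1186, 1330 and 1347 CPM in isoflurane libraries 5 to 8 and 469.7, 449.9, 470.0 and 474 CPM in propofol libraries 13 to 16. It was 2.805-fold higher (log2 fold change 1.49, SE 0.055, adjusted p = 2.96e-07), with the propofol libraries within a few percent of each other. Stard4, a sterol carrier, had 71.1, 69.7, 73.1 and 77.9 CPM in isoflurane libraries 5 to 8 and 24.6, 21.2, 20.2 and 28.3 CPM in propofol libraries 13 to 16 (log2 fold change 1.62, SE 0.10, adjusted p = 2.45e-06). Mvd, which makes isopentenyl pyrophosphate, was 2.499-fold higher (adjusted p = 5.62e-06), Idi1, its isomerase, 1.87-fold (adjusted p = 5.47e-06), and Sqle, squalene epoxidase, 1.27-fold (adjusted p = 7.41e-04). Among the members that were not called was Ebp, an isomerase late in the pathway (0.13, adjusted p = 0.0971). None of the 15 promoter windows found for the higher genes held the sterol regulatory element (ATCAC and CCAC with 1 base between, on either strand), a string present in 0.119% of the windows of all genes tested, which says only that these letters are not in these windows.
Fatty acid synthesis did not move with cholesterol synthesis. Fasn, fatty acid synthase, had 686, 678, 1390 and 709 CPM in isoflurane libraries 5 to 8 and 699.8, 1231, 1201 and 638 CPM in propofol libraries 13 to 16 (log2 fold change -0.13, SE 0.27, adjusted p = 0.727), with isoflurane library 7 and propofol libraries 14 and 15 high. Scd1, the stearoyl-CoA desaturase, had a log2 fold change of 0.38 (adjusted p = 0.160, and 0.0270 without library 15). Over fatty acid and triglyceride synthesis 6 of 28 genes were called higher and 6 lower. Each count is 21.4%, near the 21.6% and 21.7% over all genes. The 6 higher became 3 without library 5, 13 or 14, and with library totals 2 were higher and 8 lower. Lpin1, a phosphatidate phosphatase and coactivator raised in fasting, was 2.71-fold higher (log2 fold change 1.44, SE 0.15, adjusted p = 5.11e-05) and Insig2, which holds SREBP in the endoplasmic reticulum, 1.92-fold (log2 fold change 0.94, SE 0.22, adjusted p = 0.00577; 0.0823 in the fit over 16 libraries). G0s2, the inhibitor of adipose triglyceride lipase, was 2.52-fold lower (log2 fold change -1.33, SE 0.17, adjusted p = 1.59e-04), and Me1, malic enzyme, was lower by nearly the same amount (log2 fold change -1.32, SE 0.21, adjusted p = 5.66e-04). The acyltransferases Agpat2 (-0.60) and Dgat2 (-0.49, and adjusted p = 0.0898 in the fit over 16 libraries) were lower as well.

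**Figure D2:**
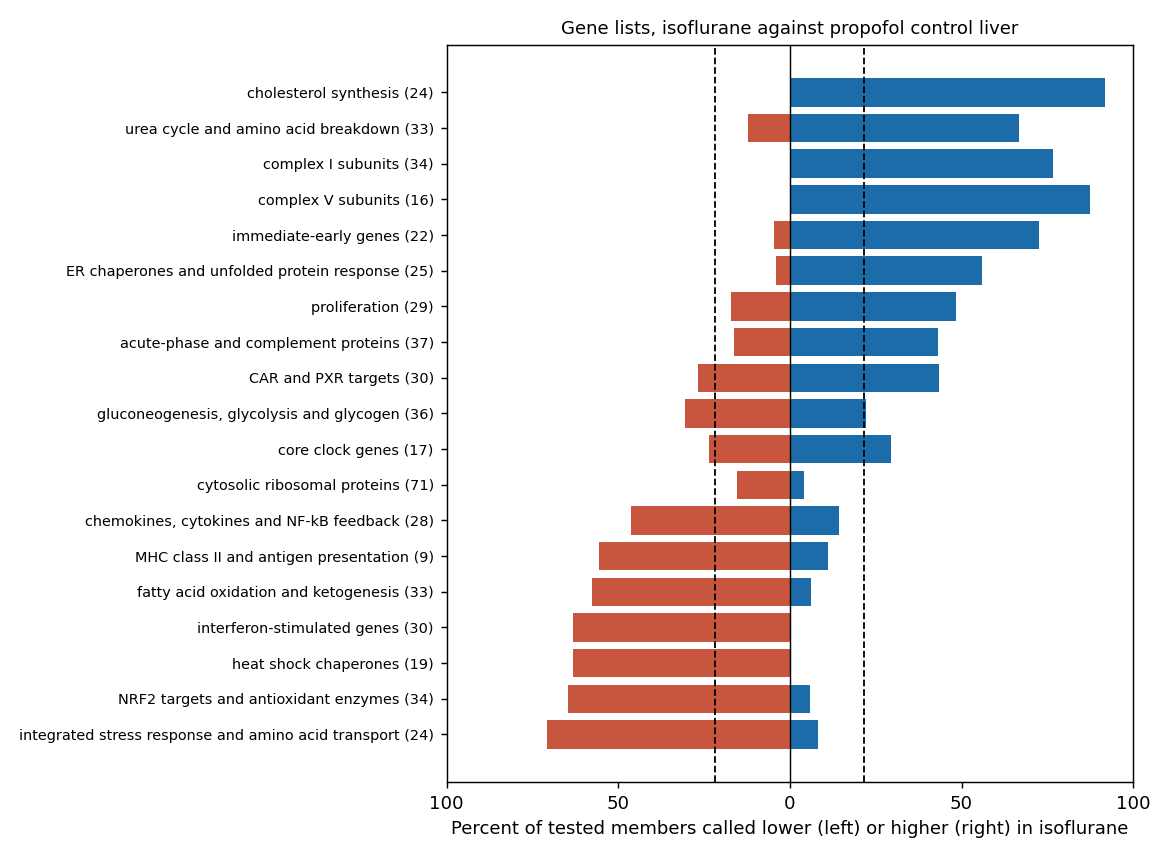
Percent of the tested members of 19 gene lists that were called higher (right, blue) or lower (left, red) under isoflurane than under propofol in control liver, with the number tested in parentheses. Dashed lines mark the share over all genes tested, 21.6% higher and 21.7% lower; of the lists drawn, cholesterol synthesis reaches furthest to the right (91.7%) and the integrated stress response furthest to the left (70.8%).

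NRF2 targets and antioxidant enzymes were lower under isoflurane. NRF2 is a transcription factor that electrophiles and oxidants release from its inhibitor KEAP1, and it binds antioxidant response elements with the core TGACNNNGC. Of 34 genes tested, 22 (64.7%, against 21.7% of all genes) were called lower and 2 (5.88%, against 21.6%) higher. The median log2 fold change was -0.59. Of the 22 lower genes, 19 had a promoter window in RefSeq (GRCr8, 250 bases before to 50 after the gene's start), and 7 of these windows (36.8%) held the core on either strand, against 14.9% of the windows of all genes tested. The stretches around it in Gclm, Txnrd1 and Gstp1 are shown because these genes stand for the glutathione and thioredoxin arms of the group. They are printed 5′ to 3′ on the gene's strand, with up to 25 bases on each side and the core or its reverse complement in capitals. A match of letters is a description and shows no binding. The list was assembled by pathway, so a high share may come with the choice of its members. Members that were not called were not searched, here and for the elements given below. The core starts 172 bases before the start of Gclm, 78 before that of Txnrd1 and 61 before that of Gstp1.
Gclm (chr2:213031938-213031996, + strand): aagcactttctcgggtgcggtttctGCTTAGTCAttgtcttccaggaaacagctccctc
Txnrd1 (chr7:22755949-22756007, - strand): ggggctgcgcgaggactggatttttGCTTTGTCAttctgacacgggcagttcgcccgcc
Gstp1 (chr1:210769733-210769791, - strand): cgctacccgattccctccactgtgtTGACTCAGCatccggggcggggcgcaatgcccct
Gclm, the modifier subunit of the enzyme that limits glutathione synthesis, had 29.6, 32.9, 32.7 and 31.5 CPM in isoflurane libraries 5 to 8 and 55.4, 64.96, 90.3 and 48.4 CPM in propofol libraries 13 to 16 (log2 fold change -1.04, SE 0.16, adjusted p = 4.77e-04). Txnrd1, thioredoxin reductase, had 154, 154, 149 and 159 CPM in isoflurane libraries 5 to 8 and 355, 337, 552 and 235 CPM in propofol libraries 13 to 16 (log2 fold change -1.27, SE 0.20, adjusted p = 5.42e-04). For both genes the isoflurane libraries were nearly equal, and propofol library 15 was the highest and 16 the lowest of a wide propofol group. Gclm and Txnrd1 were chosen for their windows after their values were seen. Gstp1, a glutathione transferase, was 3.23-fold lower (8.69 ± 0.967 CPM under isoflurane and 27.6 ± 4.42 CPM under propofol; log2 fold change -1.69, SE 0.12, adjusted p = 7.69e-06), Aox1, an aldehyde oxidase, 1.92-fold lower (log2 fold change -0.94, SE 0.055, adjusted p = 2.45e-06), and the efflux pump Abcc4 1.98-fold lower (log2 fold change -0.99, SE 0.094, adjusted p = 3.02e-05). Akr7a3, given above, had the largest difference of the list. The 2 members called higher were the glutathione peroxidases Gpx1 (0.37) and, at a low level, Gpx2 (0.82, adjusted p = 0.0163, 0.0508 without isoflurane library 8 and 0.127 in the fit over 16 libraries). Hmox1, heme oxygenase 1, had 263, 304, 148 and 329.7 CPM in isoflurane libraries 5 to 8 and 349, 599, 819 and 203 CPM in propofol libraries 13 to 16 and was not called (log2 fold change -0.92, SE 0.37, adjusted p = 0.0667), but it passed without propofol library 16 (adjusted p = 0.00880) and with library totals (0.0337). The list mean deviated by 0.267, 0.358, 0.631 and -0.00479 in propofol libraries 13 to 16 and by -0.292, -0.272, -0.405 and -0.280 in isoflurane libraries 5 to 8, again highest in library 15.

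Genes of the integrated stress response, which ATF4 switches on when amino acids run short or translation initiation is restrained, were lower under isoflurane. Of 24 genes tested, 17 (70.8%, against 21.7% of all genes) were called lower and 2 (8.33%, against 21.6%) higher. The median log2 fold change was -0.81, the lowest median of all gene lists examined. All 17 lower members had a RefSeq window, and 4 (23.5%) held the amino acid response element core TGATGNAA on either strand, against 1.99% of the windows of all genes tested. These 4 stretches are shown as above, with the core in capitals; it starts 21, 30, 143 and 131 bases before the start of Trib3, Slc7a1, Fgf21 and Pycr1.
Trib3 (chr3:161275534-161275579, - strand): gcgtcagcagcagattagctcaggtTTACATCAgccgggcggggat
Slc7a1 (chr12:11664433-11664487, + strand): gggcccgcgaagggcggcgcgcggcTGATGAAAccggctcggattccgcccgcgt
Fgf21 (chr1:105221487-105221544, - strand): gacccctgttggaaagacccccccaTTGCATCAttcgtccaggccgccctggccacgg
Pycr1 (chr10:106420911-106420968, - strand): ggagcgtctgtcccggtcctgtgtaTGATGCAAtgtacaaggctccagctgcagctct
The enzymes that make serine from glycolysis were lower together. Phgdh, the first of them, had 32.4, 30.9, 31.03 and 33.4 CPM in isoflurane libraries 5 to 8 and 94.98, 119, 106 and 79.3 CPM in propofol libraries 13 to 16 and was 3.14-fold lower (log2 fold change -1.65, SE 0.11, adjusted p = 4.05e-06). Psat1 was 2.82-fold lower (29.3 ± 3.12 CPM under isoflurane and 82.2 ± 10.6 CPM under propofol; log2 fold change -1.495, SE 0.10, adjusted p = 5.47e-06) and Psph, the last step, 2.02-fold lower (log2 fold change -1.02, SE 0.071, adjusted p = 5.88e-06). Asns, asparagine synthetase, had 51.9, 47.8, 50.01 and 51.95 CPM in isoflurane libraries 5 to 8 and 105, 109, 105 and 86.3 CPM in propofol libraries 13 to 16 (log2 fold change -1.01, SE 0.073, adjusted p = 7.29e-06). Isoflurane libraries lay close together for each of these enzymes, and no propofol library reached them. Of the 4 genes shown with their promoters, which were chosen after their values were seen, the pseudokinase Trib3 (-1.14, adjusted p = 4.01e-04), the arginine transporter Slc7a1 (-1.06, adjusted p = 0.00142) and the proline synthesis enzyme Pycr1 (-0.89, adjusted p = 0.00334, and 0.134 in the fit over 16 libraries) were separate between the groups. Fgf21, a fasting hormone of the liver, had 30.8, 19.8, 34.99 and 28.1 CPM in isoflurane libraries 5 to 8 and 29.1, 115, 82.3 and 48.9 CPM in propofol libraries 13 to 16 (log2 fold change -1.29, SE 0.34, adjusted p = 0.0118), and propofol library 13 lay within the isoflurane range. The 2 members called higher were Slc38a2, the system A amino acid transporter (log2 fold change 0.95, SE 0.14, adjusted p = 4.56e-04), and Ppp1r15a, which restores translation (log2 fold change 0.68, SE 0.10, adjusted p = 4.08e-04). Atf4 itself (-0.081, adjusted p = 0.452) and its partner Ddit3 (-0.043, adjusted p = 0.786) were not called.

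Heat shock chaperones were lower under isoflurane, and chaperones of the endoplasmic reticulum were slightly higher by the TMM scaling. Of 19 heat shock genes tested, 12 (63.2%, against 21.7% of all genes) were called lower and none higher, with a median of -0.44. Hsph1, a nucleotide exchange factor of HSP70, had 109, 104, 110.2 and 113 CPM in isoflurane libraries 5 to 8 and 198, 173, 205 and 175 CPM in propofol libraries 13 to 16 (log2 fold change -0.79, SE 0.063, adjusted p = 1.24e-05). Fkbp4, an HSP90 co-chaperone of steroid receptors, had 88.2, 84.4, 86.7 and 91.7 CPM in isoflurane libraries 5 to 8 and 148, 143, 136 and 158 CPM in propofol libraries 13 to 16 (log2 fold change -0.74, SE 0.056, adjusted p = 9.87e-06). Hsp90ab1, the constitutive HSP90, was 1.600-fold lower (adjusted p = 1.38e-05), and Stip1, which links HSP70 to HSP90, 1.54-fold (adjusted p = 2.32e-05). All 8 libraries separated for these 4 genes. Hspa1b, the inducible HSP70, was near 1 CPM in both groups and not called (-0.61, adjusted p = 0.0733, and 0.0293 without library 5). Of the 11 lower genes with a RefSeq window, 4 (36.4%) held the heat shock element (GAA, TTC and GAA, each 2 bases after the last, on either strand), against 0.454% of all genes tested. That of Hsph1, starting 36 bases before the gene's start, is shown because this gene had the next smallest adjusted p after Fkbp4.
Hsph1 (chr12:10427307-10427367, + strand): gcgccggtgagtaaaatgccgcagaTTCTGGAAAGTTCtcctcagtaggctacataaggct
In the endoplasmic reticulum and unfolded protein response, 14 of 25 genes (56%, against 21.6% of all genes) were called higher, with a median of 0.21. The 1 called lower (4%, against 21.7%) was Creb3l3, a secretory pathway transcription factor of the liver (-0.59). With scaling by library totals this changed to 5 higher and 4 lower, with a median of 0.0635. Xbp1, the transcription factor of this response, was higher (0.74, adjusted p = 0.00350).

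Subunits of the respiratory chain were higher under isoflurane by a small and even amount. In complex I 26 of 34 tested genes were called higher and none lower (median 0.25), in complex II all 4 (0.27), in complex III all 8 (0.35), in complex IV 9 of 10 (0.33) and in complex V 14 of 16 (0.28). The subunits with the smallest adjusted p were Ndufc2 in complex I (0.38, adjusted p = 3.19e-04), Sdhd in complex II (0.55, 3.54e-05), Uqcrh in complex III (0.49, 4.34e-05), Cox8a in complex IV (0.41, 9.18e-05) and Atp5d in complex V (0.44, 2.76e-04). Sdhd had 119, 117, 119.8 and 118 CPM in isoflurane libraries 5 to 8 and 75.1, 86.4, 77.8 and 83.1 CPM in propofol libraries 13 to 16. The isoflurane libraries were within a few CPM of each other, above every propofol library. These differences are close to the shift that the scaling makes. With library totals the calls were 10 of 34 for complex I, 1 of 4 for complex II, 7 of 8 for complex III, 9 of 10 for complex IV and 8 of 16 for complex V, none lower, with medians of 0.10, 0.12, 0.21, 0.19 and 0.13. In the tricarboxylic acid cycle list, which also holds linked enzymes, 10 of 20 genes (50%) were called higher and 4 (20%) lower, and 5 and 6 with library totals. Over all genes the shares were 21.6% and 21.7%, so the share called lower is near that of all genes. The 4 called lower were the isocitrate dehydrogenases Idh1 (-0.84) and Idh2 (-0.27) and the acyltransferase subunits Dlat (-0.28) and Dlst (-0.15). Of these Idh1 is cytosolic and Dlat belongs to pyruvate dehydrogenase, so neither is an enzyme of the cycle itself. Of these Idh2, Dlat and Dlst lost their calls when single libraries (5, 6, 8, 14 or 16) were left out, with adjusted p of 0.0518 to 0.0852, and in the fit over 16 libraries (0.414, 0.0637 and 0.0933). Of 71 cytosolic ribosomal protein genes 3 (4.23%, Rpl17, Rpl41 and Fau) were called higher and 11 (15.5%) lower, both below the shares over all genes. With library totals the counts were 1 and 47.

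**Figure D3:**
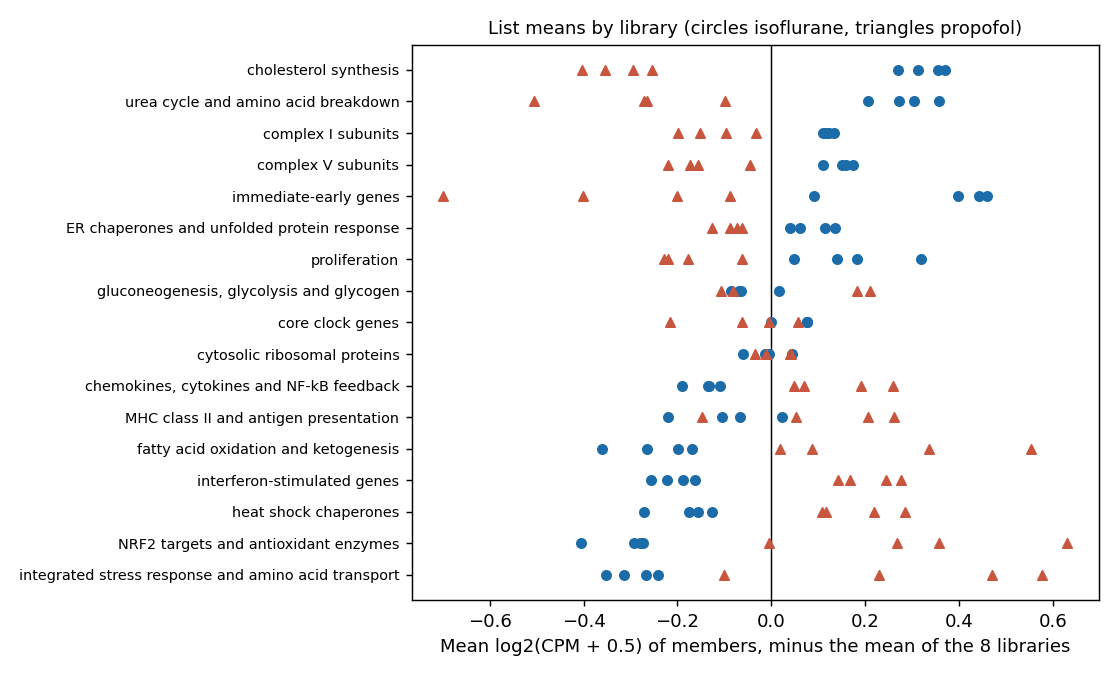
Mean log2(CPM + 0.5) over the tested members of 17 gene lists in each control library, minus the mean of the 8 libraries, for isoflurane (blue circles) and propofol (red triangles). Groups overlap for the gluconeogenesis, core clock, cytosolic ribosomal protein and MHC class II lists and are separate for all others drawn. Among the separate lists, propofol triangles are widely spread for the stress response, NRF2, immediate-early and fatty acid oxidation.

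Drug-metabolizing enzymes differed in both directions. Phenobarbital-like compounds act through the receptor CAR (Nr1i3) on Cyp2b genes, and PXR (Nr1i2) acts on Cyp3a genes. Of 30 CAR and PXR targets tested, 13 (43.3%) were called higher under isoflurane and 8 (26.7%) lower (median 0.21), and 11 and 10 with library totals. Over all genes the shares were 21.6% and 21.7%. Nr1i3 had 2.402, 4.04, 5.35 and 5.21 CPM in isoflurane libraries 5 to 8 and 8.74, 13.1, 18.9 and 10.97 CPM in propofol libraries 13 to 16 and was 3.01-fold lower (log2 fold change -1.59, SE 0.26, adjusted p = 7.45e-04), whereas Nr1i2 was not called (0.026, adjusted p = 0.848). Cyp2b2 had 232, 239, 263 and 267 CPM in isoflurane libraries 5 to 8 and 371, 399.7, 461 and 304 CPM in propofol libraries 13 to 16 (log2 fold change -0.63, SE 0.11, adjusted p = 9.63e-04), and was not called in the fit over 16 libraries (adjusted p = 0.265). Its close paralog Cyp2b1 was lower by a similar amount (-0.53, adjusted p = 0.0411) with overlap between the groups, and its call was lost when any of libraries 5, 6, 7, 8, 14 or 15 was left out (adjusted p = 0.0571 to 0.0999), in DESeq2 (0.0689), in limma-voom (0.0629) and in the fit over 16 libraries (0.338). Without library 15 the log2 fold change of Cyp2b1 was -0.31. Since Cyp2b1 and Cyp2b2 are near-identical, reads may have been divided between them. Cyp2c7, a retinoid and steroid hydroxylase, had 1477, 1400, 1461 and 1564 CPM in isoflurane libraries 5 to 8 and 693, 743, 791 and 738 CPM in propofol libraries 13 to 16 and was 1.98-fold higher (log2 fold change 0.98, SE 0.053, adjusted p = 1.86e-06). Cyp3a9 was 2.23-fold higher (log2 fold change 1.16, SE 0.080, adjusted p = 5.62e-06), Cyp3a2 1.24-fold (adjusted p = 0.00555, not called with library totals or in the fit over 16 libraries, adjusted p = 0.230), and Cyp3a23/3a1, below 1.5 CPM in every library, was not called (0.51). Abcb1b, the inducible P-glycoprotein, had 16.96, 13.3, 13.9 and 16.2 CPM in isoflurane libraries 5 to 8 and 4.01, 3.13, 3.45 and 2.35 CPM in propofol libraries 13 to 16 and was 4.696-fold higher (log2 fold change 2.23, SE 0.14, adjusted p = 4.05e-06). The transporters Abcc2 (-0.67) and Abcc3 (-0.70) and Alas1, the first enzyme of heme synthesis (-0.77), were lower. The dioxin-inducible Cyp1a2 was 1.400-fold higher (adjusted p = 0.00297). Cyp1a1 was higher at a low level (0.94, adjusted p = 0.0219), a call lost without library 6, 8, 14 or 16 (adjusted p = 0.0537 to 0.0667) and in the fit over 16 libraries (0.221). Cyp2e1, which oxidizes volatile ethers such as isoflurane, was not called, with 760.1, 822, 919 and 844 CPM in isoflurane libraries 5 to 8 and 668, 741, 858 and 749.8 CPM in propofol libraries 13 to 16 (log2 fold change 0.14, SE 0.079, adjusted p = 0.172), although it passed without library 15 (adjusted p = 0.0394).
Nr0b2, Nr1h4 and Cyp8b1, genes of the bile acid receptor FXR and of bile acid synthesis, were lower under isoflurane. Nr0b2 (SHP), the repressor that FXR induces, had 1.297, 0.707, 1.63 and 1.37 CPM in isoflurane libraries 5 to 8 and 3.09, 12.9, 10.3 and 6.47 CPM in propofol libraries 13 to 16 and was 6.48-fold lower under isoflurane (log2 fold change -2.696, SE 0.40, adjusted p = 4.01e-04). FXR itself (Nr1h4) was 1.82-fold lower (log2 fold change -0.86, SE 0.13, adjusted p = 5.55e-04), and Cyp8b1, the sterol 12-hydroxylase that SHP represses, 1.96-fold lower (log2 fold change -0.97, SE 0.18, adjusted p = 0.00155; 0.161 in the fit over 16 libraries). Cyp7a1, the rate-limiting enzyme of bile acid synthesis, was lower with overlap (2.88, 7.78, 8.75 and 10.4 CPM in isoflurane libraries 5 to 8 and 14.5, 28.5, 9.18 and 12.6 CPM in propofol libraries 13 to 16; log2 fold change -1.08, SE 0.38, adjusted p = 0.0392). Its call was lost without library 5, 6, 7, 13 or 14 (adjusted p = 0.0592 to 0.131) and in DESeq2 (0.0578), limma-voom (0.0625) and the fit over 16 libraries (0.179), and the log2 fold change without library 14 was -0.66. Over bile acid synthesis and transport, 7 of 18 genes (38.9%, against 21.7% of all genes) were called lower and 5 (27.8%, against 21.6%) higher, or 9 and 5 with library totals. The 5 higher were the sterol 27-hydroxylase Cyp27a1 (0.52), the phospholipid and sterol pumps Abcb4 (0.52) and Abcg5 (0.43), the organic anion transporter Slco1a1 (0.57) and the bile acid ligase Slc27a5 (0.36). Of these Cyp27a1, Abcg5 and Slc27a5 were not called in the fit over 16 libraries (adjusted p = 0.0685, 0.127 and 0.0752).

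Several clock genes, among them Arntl and Dbp, differed between the anesthetics at the single time of sampling. The clock of the liver runs on BMAL1 (Arntl) and its partners CLOCK and NPAS2, which drive the Per, Cry and Nr1d genes and the output factors DBP and TEF, and Arntl and Dbp peak at opposite times of day. Of 17 core clock genes 5 (29.4%) were called higher and 4 (23.5%) lower, shares near the 21.6% and 21.7% over all genes tested, and with library totals 5 and 7. Arntl had 11.4, 6.42, 10.8 and 10.3 CPM in isoflurane libraries 5 to 8 and 3.94, 1.18, 1.701 and 5.24 CPM in propofol libraries 13 to 16 and was 3.201-fold higher (log2 fold change 1.68, SE 0.34, adjusted p = 0.00285). Dbp had 38.6, 53.8, 43.5 and 44.1 CPM in isoflurane libraries 5 to 8 and 94.5, 117, 101 and 106 CPM in propofol libraries 13 to 16 and was 2.34-fold lower (log2 fold change -1.23, SE 0.10, adjusted p = 1.38e-05). The 2 groups did not overlap for either gene. Nfil3, which opposes DBP at the same sites, was 1.97-fold higher (55.99 ± 2.41 CPM under isoflurane and 28.2 ± 11.9 CPM under propofol; log2 fold change 0.98, SE 0.21, adjusted p = 0.00406), Clock 1.51-fold (log2 fold change 0.59, SE 0.14, adjusted p = 0.00524) and the E-box repressor Bhlhe40 1.31-fold (log2 fold change 0.39, SE 0.057, adjusted p = 3.54e-04). Per3 had 16.9, 22.8, 18.5 and 20.2 CPM in isoflurane libraries 5 to 8 and 27.5, 31.4, 32.4 and 30.6 CPM in propofol libraries 13 to 16 (log2 fold change -0.64, SE 0.089, adjusted p = 2.80e-04), and Tef was lower by a smaller amount (-0.33, adjusted p = 0.00817). Cry2 (-0.36, adjusted p = 0.0187) lost its call without isoflurane library 5 (0.0584) or 8 (0.0641). In the fit over 16 libraries Clock (adjusted p = 0.0680), Bhlhe40 (0.118), Tef (0.275), Cry2 (0.171) and Npas2 (0.104) were not called. Npas2 was higher with overlap (1.42, adjusted p = 0.0227) and lost its call without library 7 (0.0557) or 14 (0.0604). Per1 (0.25, adjusted p = 0.210), Per2 (-0.58, adjusted p = 0.0591) and Nr1d1 (-0.48, adjusted p = 0.0600) were not called. For Nr1d1 propofol library 15 was below all others, and without it the gene passed (log2 fold change -0.68, adjusted p = 2.20e-04), as it did with DESeq2 (0.0260). Per2 passed without propofol library 13 (0.0334) or 16 (0.0485). Among 13 clock output genes the reductase Por (0.40) was called higher, a call that was lost without any library other than 15 (adjusted p = 0.0571 to 0.0962), with library totals (0.141) and in the fit over 16 libraries (0.341). Of the 13, 3 (23.1%, near the 21.7% over all genes) were called lower (7 with library totals). These 3 were Tsku, given above, the deubiquitinase Usp2 (log2 fold change -0.89, SE 0.17, adjusted p = 0.00184) and Rgs16, a regulator of G proteins that rises in fasting. Rgs16 had 5.09, 3.74, 14.2 and 1.54 CPM in isoflurane libraries 5 to 8 and 1.84, 61.4, 36.98 and 15.4 CPM in propofol libraries 13 to 16 (log2 fold change -2.34, SE 0.81, adjusted p = 0.0372), with overlap, and lost its call without library 5, 6, 8, 14 or 15 (adjusted p = 0.0576 to 0.127) and in DESeq2 (0.0631) and limma-voom (0.119). The E-box CACGTG, which BMAL1 and CLOCK bind, was in 2 of 9 windows of the called core clock genes (Tef and Bhlhe40; 22.2%) and in 9.52% of all genes tested. The submitters' labels used here give no clock time of sampling, so a difference in the time of day was not tested.

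**Figure D4:**
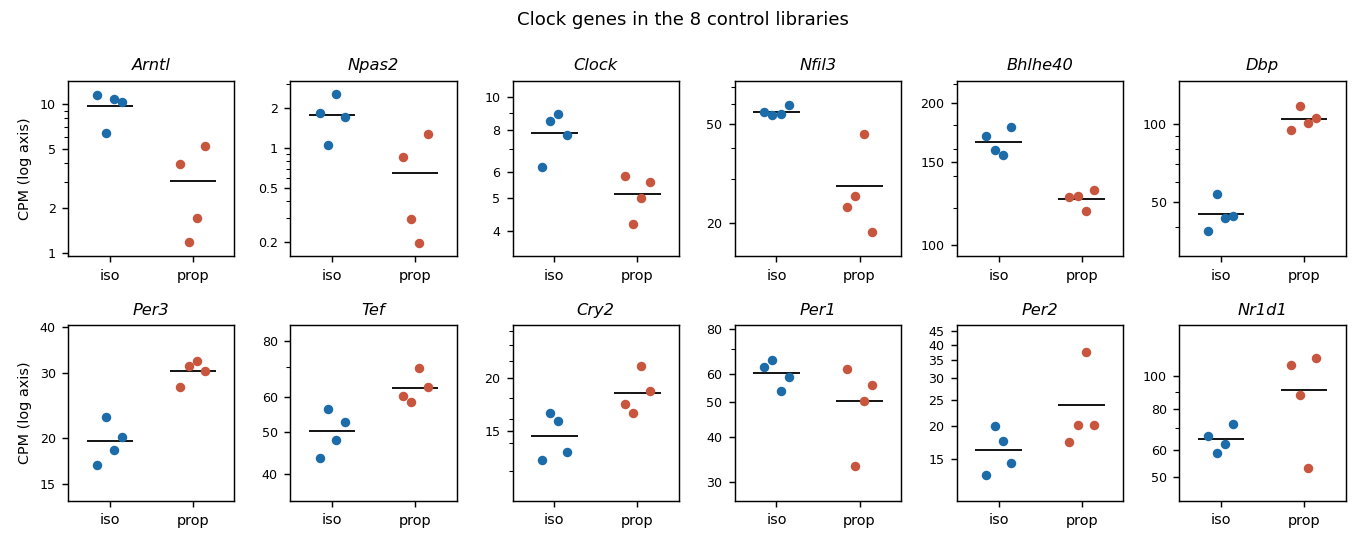
Normalized expression (CPM, log axis) of 12 clock genes in the 4 isoflurane (blue, iso) and 4 propofol (red, prop) control libraries, with the group mean as a black line. Arntl, Clock, Nfil3 and Bhlhe40 are higher and Dbp, Per3 and Tef lower in every isoflurane library, and the groups overlap for Npas2, Cry2, Per1, Per2 and Nr1d1.

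Immediate-early genes, which growth factors, cAMP and stress switch on within minutes, were higher under isoflurane. Of 22 tested, 16 (72.7%, against 21.6% of all genes) were called higher and 1 (4.55%, against 21.7%) lower, with a median of 0.54. With library totals 11 were higher and 2 lower. Nr4a1, an orphan receptor that glucagon induces and that drives gluconeogenic genes, had 19.8, 20.97, 7.36 and 25.9 CPM in isoflurane libraries 5 to 8 and 1.64, 1.36, 2.72 and 1.57 CPM in propofol libraries 13 to 16 and was 10.04-fold higher (log2 fold change 3.33, SE 0.38, adjusted p = 9.30e-05). Btg2, an antiproliferative cofactor, had 541, 513, 344 and 547 CPM in isoflurane libraries 5 to 8 and 151, 107, 155 and 89.2 CPM in propofol libraries 13 to 16 (log2 fold change 1.95, SE 0.19, adjusted p = 3.67e-05). Jund (0.85, adjusted p = 1.49e-04) and Klf4 (1.16, adjusted p = 1.77e-04) were also separate between the groups. Fos had 29.4, 25.3, 14.96 and 20.9 CPM in isoflurane libraries 5 to 8 and 16.03, 4.08, 6.51 and 5.98 CPM in propofol libraries 13 to 16 (log2 fold change 1.49, SE 0.34, adjusted p = 0.00534), with propofol library 13 inside the isoflurane range, and Egr1 differed by 0.43 (adjusted p = 0.00908), a call lost with library totals and in the fit over 16 libraries (0.145). Of the 12 higher members with a RefSeq promoter window, 4 (Jund, Ier2, Btg2 and Dusp1; 33.3%) held the cAMP response element TGACGTCA, against 3.04% of all genes tested. Isoflurane library 7 was the lowest of its group for Nr4a1, Btg2, Fos and Egr1. The exception was Myc, which was lower with overlap (35.5, 34.7, 32.3 and 33.2 CPM in isoflurane libraries 5 to 8 and 55.8, 72.8, 125 and 26.9 CPM in propofol libraries 13 to 16; log2 fold change -1.06, SE 0.34, adjusted p = 0.0270) and lost its call without library 5, 6, 7, 8, 14 or 15 (adjusted p = 0.0543 to 0.0635) and in limma-voom (0.0777). Without library 15 its log2 fold change was -0.62.
Among 19 glucocorticoid targets 9 (47.4%) were called higher and 4 (21.1%) lower, and 8 and 6 with library totals. Over all genes the shares were 21.6% and 21.7%, so the share called lower is near that of all genes. Sgk1, a kinase that glucocorticoids and cell shrinkage induce, was 3.48-fold higher (143 ± 38.1 CPM under isoflurane and 40.8 ± 10.3 CPM under propofol; log2 fold change 1.798, SE 0.22, adjusted p = 1.40e-04), and the metallothioneins Mt1a (0.78, adjusted p = 2.01e-04) and Mt2A (0.73, adjusted p = 1.92e-04) were higher. The 4 lower members were Fkbp5, a co-chaperone that the glucocorticoid receptor induces (-0.37, adjusted p = 0.00399), Ddit4, an inhibitor of mTORC1 (-0.82, adjusted p = 4.42e-04), Angptl4 and Lcn2. Of 25 hypoxia-response genes 11 (44%) were called higher and 3 (12%), Hif1a, Ddit4 and Angptl4, lower, and 9 and 5 with library totals. Kdm3a, a histone demethylase (0.64, adjusted p = 8.82e-05), and the mitophagy receptors Bnip3l (0.50, 1.08e-04) and Bnip3 (0.78, 1.09e-04) were higher. Hif1a was at 57.4 ± 1.93 CPM under isoflurane and 62.6 ± 2.56 CPM under propofol (log2 fold change -0.14, SE 0.050, adjusted p = 0.0491), a difference that lost its call without library 5, 6, 7, 8, 13, 15 or 16 (adjusted p = 0.0520 to 0.140). In the fit over 16 libraries Fkbp5 (adjusted p = 0.180), Ddit4 (0.264), Bnip3 (0.0845) and Hif1a (0.421) were not called.

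Interferon-stimulated genes and most MHC class II genes tested were lower under isoflurane. Of 30 interferon-stimulated genes tested, 19 (63.3%, against 21.7% of all genes) were called lower and none higher (median -0.45). Gbp2, a guanylate-binding GTPase, had 2.55, 2.02, 2.77 and 2.19 CPM in isoflurane libraries 5 to 8 and 7.62, 5.97, 7.34 and 4.800 CPM in propofol libraries 13 to 16 and was 2.72-fold lower (log2 fold change -1.45, SE 0.17, adjusted p = 8.82e-05). Mx2, an antiviral GTPase (-1.03, adjusted p = 6.89e-04), the immunoproteasome subunit Psmb9 (-0.69, adjusted p = 2.54e-04) and Ifi44 (-0.62, adjusted p = 2.15e-04) were separate between the groups. Of the 13 lower genes with a RefSeq window, 9 (69.2%) held the interferon-stimulated response element (GAAA and GAAA with any 2 bases between, on either strand), against 2.98% of all genes tested. Members of the list that were not called were not searched, so this share does not set the called genes apart from them. The windows of Gbp2, Igtp and Irf7 are shown as examples of it in an effector, an immunity-related GTPase and a transcription factor; it starts 31, 103 and 69 bases before their starts.
Gbp2 (chr2:234005671-234005726, + strand): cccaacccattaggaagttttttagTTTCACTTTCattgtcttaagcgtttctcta
Igtp (chr10:42874919-42874978, + strand): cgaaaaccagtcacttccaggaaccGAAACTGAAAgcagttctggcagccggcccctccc
Irf7 (chr1:205800058-205800117, - strand): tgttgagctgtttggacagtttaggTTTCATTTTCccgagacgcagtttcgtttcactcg
Igtp had a log2 fold change of -0.81 (adjusted p = 0.00183) and Irf7 of -0.57 (adjusted p = 0.00313), and both were chosen for their windows. Of 28 chemokine, cytokine and NF-kB feedback genes, 13 (46.4%, against 21.7% of all genes) were called lower and 4 (14.3%, against 21.6%) higher. With library totals the counts were 16 and 3, where 3824 of all 10314 genes were called lower and 1139 higher. The chemokines of this list went both ways. Tnf was counted at 0.144, 0.0505, 0.0478 and 0.0858 CPM in isoflurane libraries and 0.591, 0.473, 0.729 and 0.882 CPM in propofol libraries (log2 fold change -2.96, SE 0.39, adjusted p = 1.94e-04), and the interferon-induced chemokine Cxcl10, below 2 CPM in every library, was 4.64-fold lower (log2 fold change -2.21, SE 0.29, adjusted p = 2.03e-04). Both genes fell below the count filter in the isoflurane libraries and were tested only through their propofol libraries. Tnf had a result in 14 and Cxcl10 in 15 of the 16 alternatives. The macrophage chemokine Ccl6 (-0.64) and Tnfaip2 (-0.88) were also lower (adjusted p = 3.10e-04 and 5.35e-04). The 4 higher members were the neutrophil chemokine Cxcl1 (0.62), the eosinophil chemokine Ccl24 (1.19), the NF-kB subunit Nfkb2 (0.37) and Il1a (0.48), of which Nfkb2 lost its call without library 5 (adjusted p = 0.0584) or 16 (0.0509) and with library totals (0.134). Neither Nfkb2 (adjusted p = 0.172) nor Cxcl1 (0.0678) was called in the fit over 16 libraries. Cd74, the invariant chain of MHC class II, had 77.7, 72.7, 91.4 and 70.9 CPM in isoflurane libraries 5 to 8 and 119.6, 101, 123 and 106 CPM in propofol libraries 13 to 16 (log2 fold change -0.54, SE 0.090, adjusted p = 8.55e-04). Of 9 genes of its list, 5 (55.6%, against 21.7% of all genes) were called lower and 1 (11.1%, against 21.6%) higher. The others called lower were the class II chains RT1-Da (-0.35), RT1-Db1 (-0.48) and RT1-Ba (-0.42) and their transactivator Ciita (-0.73), and B2m, the light chain of class I, was higher (0.21, not called with library totals, adjusted p = 0.250, or in the fit over 16 libraries, 0.0895). Markers of macrophages and lymphocytes moved the same way. Of 12 Kupffer cell and macrophage markers 5 (41.7%, against 21.7% of all genes) were called lower and none higher. With library totals 8 were lower, to be read against the shift of all genes under that scaling. The 5 were Vsig4 (-0.53), Csf1r (-0.52), Emr1 (-1.18), Lyz2 (-0.63) and Cd5l (-0.49). The summed level of the list was 447 to 551.6 CPM under isoflurane and 541.8 to 588.5 CPM under propofol. Of 5 lymphocyte markers tested 2 (40%), Cd8a (-1.33) and Ptprc (-0.46), were lower and none higher. All 12 of that list summed to 22.7 to 27.3 CPM and 27.2 to 30.9 CPM. Endothelial markers were lower for 3 of 8 (37.5%, Kdr, Vwf and Eng), or 7 of 8 with library totals, with the same limit. They summed to 270.8 to 331 CPM and 337.8 to 365.8 CPM. The part of these cells in the result was not tested.
Acute-phase proteins, which hepatocytes make, had 16 of 37 genes (43.2%) called higher and 6 (16.2%) lower, and 7 higher and 9 lower with library totals. Over all genes the shares were 21.6% and 21.7%. Itih4, an inter-alpha-trypsin inhibitor chain, had 13335, 13094, 13351 and 13263 CPM in isoflurane libraries 5 to 8 and 8457, 8656, 8922 and 8360 CPM in propofol libraries 13 to 16 (log2 fold change 0.62, SE 0.038, adjusted p = 3.21e-06). Il1rn, the interleukin-1 receptor antagonist, was 2.32-fold higher (197 ± 31.8 CPM under isoflurane and 84.6 ± 9.53 CPM under propofol; log2 fold change 1.21, SE 0.12, adjusted p = 3.54e-05), and the serpin Serpina3m 1.65-fold (log2 fold change 0.72, SE 0.072, adjusted p = 3.84e-05). Lcn2, lipocalin 2, an iron-binding innate immune protein, had 188, 148, 183 and 135 CPM in isoflurane libraries 5 to 8 and 633, 371, 418 and 511 CPM in propofol libraries 13 to 16 and was 2.97-fold lower (log2 fold change -1.57, SE 0.16, adjusted p = 4.90e-05). Hamp, hepcidin, the hormone that limits iron release, had 384, 408, 384 and 226 CPM in isoflurane libraries 5 to 8 and 915, 1281, 968 and 897 CPM in propofol libraries 13 to 16 (log2 fold change -1.54, SE 0.18, adjusted p = 9.44e-05). The groups were separate for both, and isoflurane library 8 was the lowest for Hamp.

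Genes of growth and of the cell cycle differed, several of the cell cycle at low counts. Of 29 proliferation genes 14 (48.3%) were called higher and 5 (17.2%) lower (median 0.42), and 13 and 6 with library totals. The summed level of the list overlapped, at 136.7 to 154 CPM under isoflurane and 139.5 to 155.6 CPM under propofol. The 5 lower were Ccnd1, Ccne1 (-0.52), Mcm2 (-0.45), Mcm6 (-0.68) and Mcm7 (-0.52). Mcm6 lost its call without library 5, 7, 8, 13 or 15 (adjusted p = 0.0823 to 0.120). Ccnb1, the mitotic cyclin, had 3.31, 2.78, 2.68 and 4.18 CPM in isoflurane libraries 5 to 8 and 0.920, 0.827, 0.146 and 0.686 CPM in propofol libraries 13 to 16 (log2 fold change 2.401, SE 0.33, adjusted p = 2.54e-04). Ccna2 was 4.003-fold (log2 fold change 2.001, SE 0.22, adjusted p = 6.82e-05), Top2a 3.02-fold (log2 fold change 1.59, SE 0.20, adjusted p = 1.51e-04) and Rrm2 2.73-fold higher (log2 fold change 1.45, SE 0.22, adjusted p = 4.99e-04), all with fewer than 6 CPM in each library. Of 10 windows of the higher proliferation genes 7 (70%) held TTTGAA, the cell-cycle homology region, on either strand, against 11.5% of all genes tested. Ccnd1, the cyclin of G1, had 9.51, 9.903, 8.89 and 9.57 CPM in isoflurane libraries 5 to 8 and 14.98, 26.4, 21.96 and 19.3 CPM in propofol libraries 13 to 16 and was 2.198-fold lower (log2 fold change -1.14, SE 0.14, adjusted p = 1.55e-04), and the cyclin-dependent kinase inhibitor Cdkn1a was 1.61-fold higher (log2 fold change 0.69, SE 0.15, adjusted p = 0.00439). Ccne1 (adjusted p = 0.149), Mcm6 (0.0771) and Cdkn1a (0.124) were not called in the fit over 16 libraries. In the growth hormone and IGF axis 10 of 26 genes (38.5%) were called higher and 5 (19.2%) lower, or 8 each way with library totals. Over all genes the shares were 21.6% and 21.7%, so the share called lower is near that of all genes. Igfals, the acid-labile subunit that keeps IGF in the circulation, had 19.7, 22.4, 23.9 and 26.9 CPM in isoflurane libraries 5 to 8 and 72.2, 90.3, 67.3 and 86.4 CPM in propofol libraries 13 to 16 (log2 fold change -1.77, SE 0.11, adjusted p = 4.05e-06). Igfbp2 was 3.63-fold higher (21.9 ± 2.97 CPM under isoflurane and 6.04 ± 1.92 CPM under propofol; log2 fold change 1.86, SE 0.18, adjusted p = 3.54e-05). Prlr, the prolactin receptor, was 4.91-fold higher (7.69 ± 1.55 CPM under isoflurane and 1.57 ± 0.786 CPM under propofol; log2 fold change 2.296, SE 0.27, adjusted p = 1.11e-04), the male-predominant Cyp2c13 1.39-fold (adjusted p = 6.70e-05), and Cux2 (-1.57, adjusted p = 2.08e-04) and Socs2 (-0.82, adjusted p = 0.00126) were lower. The other members called lower were the female-predominant Cyp2c12 (-0.70, and adjusted p = 0.196 in the fit over 16 libraries) and the corepressor Trim24 (-0.90).
Receptors through which the drugs or the body's catecholamines could act were mostly too low for a test. Of 7 GABA, glutamate and adrenergic receptors tested, 3 (42.9%, against 21.7% of all genes) were called lower and 1 (14.3%, against 21.6%) higher. The 3 were the beta-1 receptor Adrb1 (-1.69, adjusted p = 0.00562), the AMPA receptor subunit Gria3 (-1.03, adjusted p = 0.00738) and the alpha-1B receptor Adra1b (-0.70, adjusted p = 0.00216). Adrb1 was at 0.225 ± 0.137 CPM under isoflurane and 0.742 ± 0.253 CPM under propofol. It was tested only through its propofol libraries and had a result in 14 of the 16 alternatives. The 1 called higher was the GABA-B subunit Gabbr1 (0.37, adjusted p = 0.0229, 0.0593 to 0.0597 without library 5, 6 or 14, 0.131 with library totals and 0.382 in the fit over 16 libraries). Adra1b, the main alpha-1 receptor of the rat hepatocyte, had 13.98, 14.5, 16.02 and 17.1 CPM in isoflurane libraries 5 to 8 and 18.3, 26.5, 31.3 and 23.6 CPM in propofol libraries 13 to 16. Each isoflurane library was below each propofol library for this gene. Genes of both ends of the liver lobule were more often higher than lower. Of 14 pericentral genes 7 (50%) were called higher and 3 (21.4%) lower, and of 14 periportal genes 8 (57.1%) and 1 (7.14%). Over all genes the shares were 21.6% and 21.7%. The 3 were Glul, Cyp7a1 and the transcription factor Tbx3 (-0.74, and adjusted p = 0.107 in the fit over 16 libraries), and the 1 was Hal. With library totals the counts were 5 and 4, and 7 and 2.

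The same contrast can be read in the septic livers, which are different rats and share no library with the controls, but in which the anesthetic is tied to the induction drugs and the run code in the same way. There 1982 of 10272 genes (19.3%) were called between isoflurane and propofol, 1092 higher and 890 lower under isoflurane. Of the 4468 genes called in control liver 4412 were tested, and 3594 (81.5%) had the same sign in septic liver, against 60.1% of the genes not called. Of them 1272 (28.8%) were called in the same direction and 39 in the opposite direction, and these 1272 are 65.1% of the 1955 genes called in septic liver and tested in control liver. The share with the same sign was 76.5% to 83.7% when any septic library, or libraries 1 and 2 together, was left out. The number called in the same direction ranged from 206 (without propofol septic library 12) to 1631 (without isoflurane septic libraries 1 and 2). Without libraries 9, 11 and 12 in turn it was 228, 241 and 206, without 2 and 3 it was 888 and 621, and without 1 it was 1470. The number called in the opposite direction was 203 without libraries 1 and 2 together and 115 without library 1. It was 4 to 37 without any other single septic library. Fatty acid oxidation kept its direction, with 16 of 33 genes called lower and a median of -0.39, and the log2 fold changes of Cpt2 (-1.79), Eci1 (-1.58), Phgdh (-1.96), Dbp (-2.05), Arntl (1.63), Igfals (-1.64) and Nr0b2 (-1.996) had the sign they had in control liver. Without septic libraries 1 and 2 the calls over all genes rose to 3435 of 10572. The list counts without this pair are to be read against that rise. Fatty acid oxidation then had 17 of 33 genes called lower (median -0.37), and the genes from Cpt2 to Nr0b2 were at -1.65, -1.56, -3.02, -3.53, 2.09, -1.46 and -1.39 in the same order. Interferon-stimulated genes were not lower in septic liver as a list, with a median of 0.16. There 4 of 28 (Oasl, Ifi27, Ifi27l2b and Tap1) were called higher and none lower. This is not far from the 1092 of 10272 called higher over all genes. Without libraries 1 and 2, where calls rose over all genes as well, the interferon-stimulated genes had 9 of 29 called higher and 2 lower. Their median was then 0.30. The medians of the respiratory complexes were between -0.056 and 0.23 in septic liver, and those of cholesterol synthesis and the urea cycle list 0.19 and 0.080. Without libraries 1 and 2 these medians were -0.158 to 0.165 for the complexes, 0.12 for cholesterol synthesis and 0.042 for the urea cycle list. The integrated stress response list, which holds Phgdh, had 6 of 24 genes called higher and 6 lower in septic liver (median -0.061). Without libraries 1 and 2 it had 6 and 9 (median -0.038). NRF2 targets had 2 of 33 higher and 6 lower (median -0.12), and 4 and 7 without that pair (median -0.083). MHC class II had 4 of 9 higher and none lower (median 0.28), and 5 and 1 without that pair (median 0.395).
An interaction term in a fit to the 16 libraries tested whether the contrast itself differed between control and septic liver, and it called 289 of 10621 genes (2.72%). The number rose to 1615 without isoflurane septic library 1 and 2729 without libraries 1 and 2, and was 54 to 398 without any other single library, control libraries included, so the genes it names are to be read with that spread. By this test the septic difference between anesthetics was smaller for Got1 (difference -2.08, adjusted p = 0.0106), Hmgcs1 (-1.13, adjusted p = 0.0292) and Mvd (-1.17, adjusted p = 0.0233). For G0s2 the septic log2 fold change was of the opposite sign but was not itself called (1.93, adjusted p = 0.0664; adjusted p of the difference = 0.0298), and so it was for Ppp1r3b (0.67, adjusted p = 0.0956; adjusted p of the difference = 0.0143). For Cpt1a, not called in control liver, the septic value was -1.53 and the difference was called (adjusted p = 0.0268). Without libraries 1 and 2 the differences of these 6 genes were -1.94, -1.25, -1.38, 3.64, 1.86 and -1.24, and each was called (adjusted p = 4.57e-04 for Hmgcs1 to 0.0182 for Cpt1a).

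**Figure D5:**
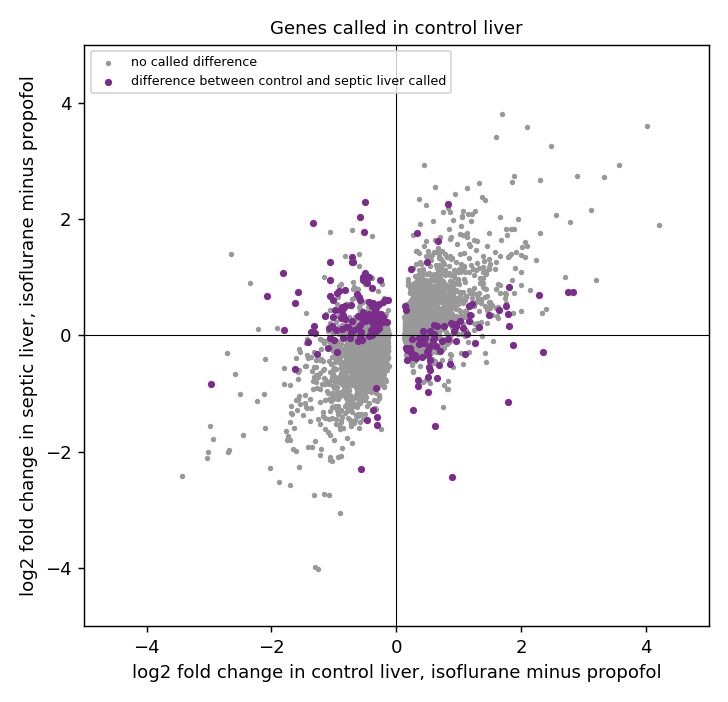
Log2 fold change between isoflurane and propofol in control liver (x axis) and in septic liver (y axis) for the genes called in control liver and tested in both, each point a gene (Adh6 was not tested in septic liver). Purple points have a called difference between the contrasts; 81.5% of the points lie in the lower left and upper right quadrants.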

How the data were processed

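Pooled liver RNA of 3 rats per library was made into poly(A)-selected, stranded, single-end Illumina libraries. The authors deposited raw read counts per gene symbol for each library, and the column holding them was used as deposited; the submitters' processing notes name STAR and the rn5 assembly, and for the counting program and annotation the sources used here give no name. The rows for reads outside genes (22.4% to 22.95% and 21.6% to 22.1% of counted reads in isoflurane and propofol control libraries) and ambiguous reads (1.15% to 1.20% and 1.26% to 1.35%) were left out.

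Groups were taken from the labels. Genes were kept by filterByExpr (minimum count 10, total 15), scaled by TMM, and tested with edgeR 4.0.16 in R 4.3.3 (glmQLFit and glmQLFTest, control libraries only, no covariates), with Benjamini-Hochberg adjustment over all genes tested and a threshold of 0.05. Fold changes are isoflurane over propofol, and n is 4 pools per group. Nothing states that pools differ in any way but their rats, so p-values measure the spread between pools. Plotted list means use log2(CPM + 0.5). Alternatives were RLE and library-total scaling, DESeq2 1.42.0, limma-voom (limma 3.58.1), other filters and thresholds, thinned counts, a fit over all 16 libraries and leaving out each library; leaving out septic libraries 1 and 2 together was chosen after seeing the data. Named genes were the 12 largest called differences in each direction (mean log2 CPM of at least 1, groups not overlapping), up to 4 called members per list and direction by adjusted p, members counted among few, and a fixed set, in which Nos2 and Bcl2 had too few reads for a test and Srebf1 is not analysed here. A few members of the lists are not reported here by name. Some named members of small counts, and the genes shown for their promoters, were chosen after their values were seen. The members and lists were chosen with earlier results of these data known. Promoter windows are from RefSeq (GRCr8) by symbol, found for 8376 of the 10314 genes tested, and both strands were searched. Of each list only called members were searched, so a share above that of all genes may come with the choice of the list.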

Additional observations from a re-analysis of the deposited data

Results flagged for a closer look

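In groups of 4 libraries, a library standing apart by Dixon's criterion was found in 27 of 428 tests, where chance gives about 1 in 20. The gap of the outlying library as a share of the group's range was, among isoflurane control libraries, 0.975 for Egr1, 0.958 for Cps1, 0.937 for Fasn, 0.92 for Il1rn, 0.901 for Hsd17b2, 0.897 for Hamp, 0.895 for Pdk4, 0.861 for Btg2, 0.855 for G0s2, 0.851 for Aox3, 0.847 for Nfkb2, 0.837 for Cxcl1 and 0.83 for Klf4. Among propofol control libraries it was 1 for Adh6 (a single read), 0.909 for Pck1, 0.899 for Por, 0.896 for Socs2, 0.878 for Tat, 0.87 for Insig2, 0.862 for Abcb4, 0.852 for Tsku, 0.837 for Cyp1a2, 0.835 for Asns, 0.833 for Ifi44 and 0.83 for Hmgcs1. Isoflurane library 8 stood apart in reads on genes (0.948), and 1 propofol library in the share of reads outside genes (0.843).

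The difference between the septic and the control contrast, septic minus control on the log2 scale, was called in the interaction test for 23 named genes. It was positive for G0s2 (3.28), Hmox1 (3.00), Cux2 (2.33), Tnf (2.12), Myc (2.01), Ppp1r3b (1.74), Trib3 (1.49), Ddit3 (1.11), Socs2 (1.10), Txnrd1 (0.96), Cd74 (0.82), RT1-Ba (0.72) and RT1-Da (0.70). It was negative for Ephx2 (-2.61), Got1 (-2.08), Sned1 (-1.99), Sgk1 (-1.63), Cpt1a (-1.46), Gpt2 (-1.23), Mvd (-1.17), Hmgcs1 (-1.13), Abcb4 (-0.72) and Il1rn (-0.67). The number of genes this test calls varied between 54 and 1615 with the library left out. Without isoflurane septic libraries 1 and 2 all 23 were called with the same sign, and for the other libraries it was not examined which of the 23 keep their call.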

How the results depend on the processing

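The 4468 calls were 4020 to 4963 under RLE or library-total scaling, DESeq2, limma-voom, the other filters and thinned counts, and 3715 to 4321 when a control library was left out. Library totals gave 1139 higher and 3824 lower, and moved 32 of 76 list counts by over 1.5 times. A fit over all 16 libraries called 2793 genes (1379 higher, 1414 lower) and lowered 36 of 76 list counts by over 1.5 times, among them complex I (26 to 15 higher), immediate-early genes (16 to 9), endoplasmic reticulum chaperones (14 to 3) and hypoxia response (11 to 5). An adjusted p below 0.01 left 2815 (1415 and 1400), and a log2 fold change beyond 1 left 449 (240 and 209). In septic liver the calls were 249 to 2867 when a library was left out and 3435 without libraries 1 and 2. The interaction called 850 genes with DESeq2, 168 without the filter, 54 to 1615 when a library was left out and 2729 without libraries 1 and 2. Of 197 named and called genes, 154 kept the call under every alternative that gave them a result, other than the stricter thresholds. Another 43 lost it under at least 1, and none of the 197 changed direction. Adrb1 and Tnf had a result in 14 of 16 alternatives, and Cd8a and Cxcl10 in 15. The cause of the losses was not tested. No paired analysis was possible because the control groups share no replicate numbers. The lower depth of the propofol libraries limits genes of few reads there, such as Adh6 and Ccnb1.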

Other observations

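The metallothionein, heme and iron list had 5 of 24 genes (20.8%) called higher under isoflurane and 11 (45.8%) lower in control liver, and 2 and 16 with library totals. Over all genes the shares were 21.6% and 21.7%, so the share called higher is near that of all genes. The 5 were Mt1a, Mt2A, the zinc and iron transporter Slc39a14, haptoglobin (Hp) and transferrin (Tf). Of 17 p53 targets and cell-cycle brakes, 8 (47.1%, against 21.7% of all genes) were called lower and 5 (29.4%, against 21.6%) higher. The 5 were Btg2, Cdkn1a, Bax, Gadd45b and Gadd45g, of which the last pair and Btg2 are also induced as early response genes. With library totals 9 were lower and 4 higher.

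In a few genes the 4 isoflurane septic libraries divided into pairs. They were chosen after their values were seen and are given with no test. Adh6 was at 0 in isoflurane septic libraries 1 and 2, at 1.91 and 5.18 CPM in 3 and 4, at 13.2 to 24.5 CPM in the isoflurane control libraries and at 0 to 0.0483 CPM in the 8 propofol libraries (CPM scaled over all 16 libraries). Akr1b7 had 0.0496 and 0.0647 CPM in libraries 1 and 2 and 13.4 and 11.4 CPM in 3 and 4. Evc had 0.744 and 0.776 CPM against 10.7 and 10.1 CPM, Prlr 1.19 and 0.582 CPM against 11.3 and 20.3 CPM, and Aldh1a7 2.13 and 1.49 CPM against 14.2 and 33.1 CPM. In these 5 genes libraries 1 and 2 lay no higher than the highest propofol library, and 3 and 4 lay above every propofol library. Ugt1a2 was an exception, with 2.38, 3.94, 6.31 and 5.71 CPM in libraries 1 to 4, all above the 8 propofol libraries (0.215 to 0.815 CPM). What sets libraries 1 and 2 apart was not tested.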
